A study of Drosophila melanogaster with 3 samples.

Results

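Chromosome 4 is the smallest chromosome of Drosophila melanogaster, and the regions described here are all places on it where the relaxed peak lists of a Pointed (Pnt) ChIP-seq experiment had a row. Every chromosome 4 row of the 3 replicates' relaxed lists on the dm6 build was taken, and rows that shared at least 1 bp were merged, which gave 245 merged regions of 54750 in the genome. They are numbered R1 to R245 along the chromosome. A relaxed list holds many weak peaks that were passed to a reproducibility filter, so a region on it is a candidate and not a called binding site.

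The experiment had 1 group and no second condition. Chromatin came from whole embryos of mixed sex collected 0 to 24 hours after laying, of the strain pnt-MiMIC-GFP, in which an eGFP exon placed in an intron of pnt makes a Pnt-eGFP fusion from the gene's own locus. Chromatin was sonicated to 200 to 800 bp and precipitated in 3 biological replicates, with an antibody against GFP by the sample descriptions although the antibody field of the labels reads pnt, and a control library was used in the calling of each list. No untagged strain was compared here, and a whole embryo mixes tissues and stages, so strong binding in few cells and weak binding in many cells cannot be told apart. Peak lists do not measure expression, so the embryo label could not be checked against marker genes. The relaxed lists were equally long at 30000 peaks each, the list called on the pooled replicates held 23148, and the optimal list, the reproducible peaks kept by the authors, held 3646. Read depth is unknown from these files.

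Pnt belongs to the ETS family of transcription factors, which bind DNA around a GGAA core, and it carries signals of receptor tyrosine kinases such as the EGF receptor to the nucleus after Ras and MAP kinase are switched on. Chromosome 4 is known for being largely packaged like heterochromatin, rich in transposons and bound by heterochromatin protein and by the chromosome-specific protein Pof, while its genes are nonetheless active. Those genes include the Hedgehog pathway's transcription factor ci, the Wnt pathway's transcription factor pan and the Pax genes ey, toy and sv.

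Of the 9 regions that all 3 replicates listed, 8 are shown first, because each relaxed list held them. R168 has the lowest rank of these 8 in each list, at 19082, 7601 and 18338 in replicates 1, 2 and 3, and is outside the optimal list. Each run is the 201 bases around the summit of the region's strongest peak on the forward strand of the RefSeq dm6 genome, in lower case, with any match to the motifs searched (an ETS core searched as CCGGAA, which is longer than the bare GGAA, DRE TATCGATA, E-box CAGCTG and the GAGA element GAGAGAG, on both strands) in capitals.
R72, intergenic, chr4:424715-424915: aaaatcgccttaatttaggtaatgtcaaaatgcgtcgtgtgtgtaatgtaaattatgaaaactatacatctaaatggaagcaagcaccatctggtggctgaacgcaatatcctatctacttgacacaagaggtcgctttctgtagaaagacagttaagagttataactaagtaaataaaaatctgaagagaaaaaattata
R96, intergenic, upstream of zfh2, chr4:497794-497994: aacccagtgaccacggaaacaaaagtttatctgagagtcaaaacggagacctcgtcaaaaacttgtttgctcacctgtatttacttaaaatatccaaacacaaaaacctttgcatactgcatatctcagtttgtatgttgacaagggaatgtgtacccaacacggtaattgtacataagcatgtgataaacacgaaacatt
R130, gw start site, chr4:660066-660266: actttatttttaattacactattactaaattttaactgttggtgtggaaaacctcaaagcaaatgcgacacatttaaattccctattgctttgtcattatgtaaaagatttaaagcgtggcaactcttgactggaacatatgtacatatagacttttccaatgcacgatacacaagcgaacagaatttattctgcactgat
R168, Sox102F coding exon, chr4:801389-801589: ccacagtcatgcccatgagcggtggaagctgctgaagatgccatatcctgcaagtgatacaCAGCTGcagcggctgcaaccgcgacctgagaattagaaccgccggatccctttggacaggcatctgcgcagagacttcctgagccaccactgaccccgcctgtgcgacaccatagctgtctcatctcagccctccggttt
R170, Sox102F start site, chr4:807569-807769: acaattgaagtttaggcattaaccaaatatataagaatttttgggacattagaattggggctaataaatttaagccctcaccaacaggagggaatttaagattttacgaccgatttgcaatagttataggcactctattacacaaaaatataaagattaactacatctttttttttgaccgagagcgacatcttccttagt
R199, intergenic, upstream of fuss, chr4:982876-983076: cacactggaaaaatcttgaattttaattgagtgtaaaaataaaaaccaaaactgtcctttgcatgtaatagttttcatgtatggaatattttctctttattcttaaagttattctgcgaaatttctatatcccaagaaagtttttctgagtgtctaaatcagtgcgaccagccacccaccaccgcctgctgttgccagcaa
R205, PlexA start site, chr4:1027127-1027327: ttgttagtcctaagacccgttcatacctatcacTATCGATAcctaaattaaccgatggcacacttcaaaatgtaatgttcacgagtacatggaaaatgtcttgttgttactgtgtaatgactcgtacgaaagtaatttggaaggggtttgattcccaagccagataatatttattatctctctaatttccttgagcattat
R207, CG11076 start site, chr4:1030990-1031190: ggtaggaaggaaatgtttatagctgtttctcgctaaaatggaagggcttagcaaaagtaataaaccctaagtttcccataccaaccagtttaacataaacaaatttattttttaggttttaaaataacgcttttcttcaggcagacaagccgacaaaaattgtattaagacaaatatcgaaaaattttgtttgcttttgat
None of these 8 windows held CCGGAA on either strand, and the bare GGAA was not counted. R205 held a DRE, the element bound by the factor DREF, and R168 held an E-box, the element of basic helix-loop-helix factors.

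For the ETS core itself, the 3 best-ranked matches on the chromosome that lie outside untranslated regions are given with 12 bases on either side and the match in capitals.
R63, near mir-9385, chr4:400914-400943: aaaatggatataTTCCGGtaagaacataac
R13, near snoRNA:CD-24, chr4:64661-64690: aactatcaatttTTCCGGaggagtcgtggg
R146, coding exon of ey, chr4:714304-714333: gccccgtcactaTTCCGGatcttggtaccc
R63 was listed by replicates 1 and 2 at ranks 3514 and 4203, R13 by replicate 3 alone at rank 4925, and R146 by replicate 2 alone at rank 9151.

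Chromosome 4 was sparse in relaxed peaks, and how sparse depended on the replicate. Replicate 1 listed 62 peaks on it, replicate 2 listed 33 and replicate 3 listed 229. Per Mb of sequence that is 46.6 peaks in replicate 1, 24.8 in replicate 2 and 172.0 in replicate 3, against 226.3, 226.5 and 225.0 peaks per Mb on the other 5 arms. The lists were equally long and nearly all of their peaks lay on the other arms, so the density there was bound to be similar. On chromosome 4 the density in replicate 3 was several times that in replicates 1 and 2.

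**Figure D1:**
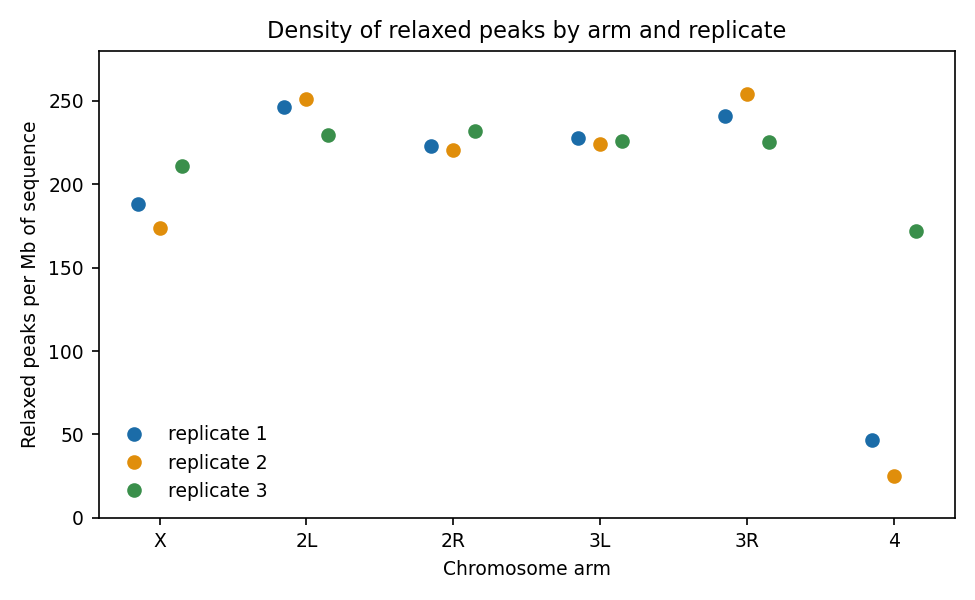
Relaxed peaks per Mb of sequence (vertical axis) on each chromosome arm (horizontal axis), 1 point per replicate. Chromosome 4 has the lowest density of the 6 arms in each replicate, and its points lie at 46.6, 24.8 and 172.0 while the points of the other arms stay between 173.5 and 253.8.

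The density on chromosome 4 was 0.206 of that on the other arms in replicate 1, 0.109 in replicate 2 and 0.765 in replicate 3, a mean ratio of 0.360 ± 0.354 (SD, n = 3). It lay under the other arms in all 3 replicates. An exact two-sided sign-flip permutation test of the log2 ratios over the replicates gave p = 0.25, the smallest value that 3 pairs allow. Without replicate 3 the mean ratio was 0.158. Chromosome 4 makes up 0.996% of the sequence, and it supplied 0.207%, 0.110% and 0.763% of the 3 relaxed lists, 0.233% of the pooled list (54 peaks) and 0.329% of the optimal list (12 peaks).

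Replicate 3 also differed in where its chromosome 4 peaks stood in the ranking by signal, the authors' height of a peak, for which no scale is stated. Among its 5000 highest peaks, 30 were on chromosome 4 (0.60%), and the number rose to 45 (0.90%) at ranks 15001 to 20000 and was 42 (0.84%) in the last 5000. In replicate 1 the first 5000 held 19 (0.38%) and each later 5000 held 7 to 10, and in replicate 2 the first 5000 held 10 and each later 5000 held 0 to 10. The chromosome was below its share of the sequence in each such group of ranks in the 3 lists.

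**Figure D2:**
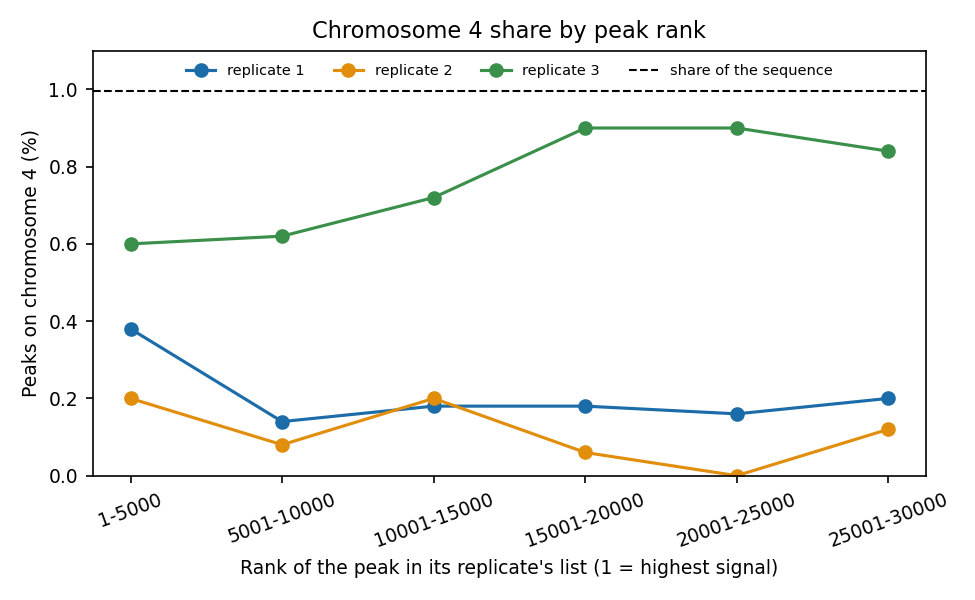
Percentage of peaks that lie on chromosome 4 (vertical axis) in successive groups of 5000 peaks ranked by signal (horizontal axis), 1 line per replicate; the dashed line is the chromosome's share of the sequence, 0.996%. Replicate 3 runs from 0.60% to 0.90%, and replicates 1 and 2 stay at or under 0.38%.

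The median rank was scaled from 0 for the strongest peak to 100 for the weakest. On chromosome 4 it was 43.5 in replicate 1, 38.4 in replicate 2 and 56.7 in replicate 3. The other arms had 50.015, 50.025 and 49.9, bound to lie near the middle because those arms hold nearly all peaks. The median chromosome 4 peak therefore stood higher in the ranking than that of the other arms in replicates 1 and 2 and lower in replicate 3. The mean difference was -3.81 ± 9.49 points (SD, n = 3; exact sign-flip permutation p = 0.75), and without replicate 2 its sign turned, to 0.118. The share of chromosome 4 peaks at an authors' q-value of 0.05 or less was 30.6% in replicate 1, 24.2% in replicate 2 and 24.9% in replicate 3, where the other arms had 16.6%, 11.3% and 32.0%. Among the 3646 highest peaks of each list, as many as the optimal list holds, chromosome 4 had 16, 8 and 18. These were 25.8%, 24.2% and 7.86% of its peaks in replicates 1, 2 and 3. On the other arms the shares were 12.1%, 12.1% and 12.2%.

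Of the 245 regions, 203 were listed by a single replicate, and 170 of these (69.4% of all) by replicate 3 alone. Replicate 1 alone listed 22 regions and replicate 2 alone listed 11. Replicates 1 and 3 shared 21, replicates 1 and 2 shared 7, replicates 2 and 3 shared 5, and 9 were in all 3 lists. On the other arms the single-replicate regions were spread more evenly, with 19.0%, 24.4% and 20.2% of regions for replicates 1, 2 and 3.

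**Figure D3:**
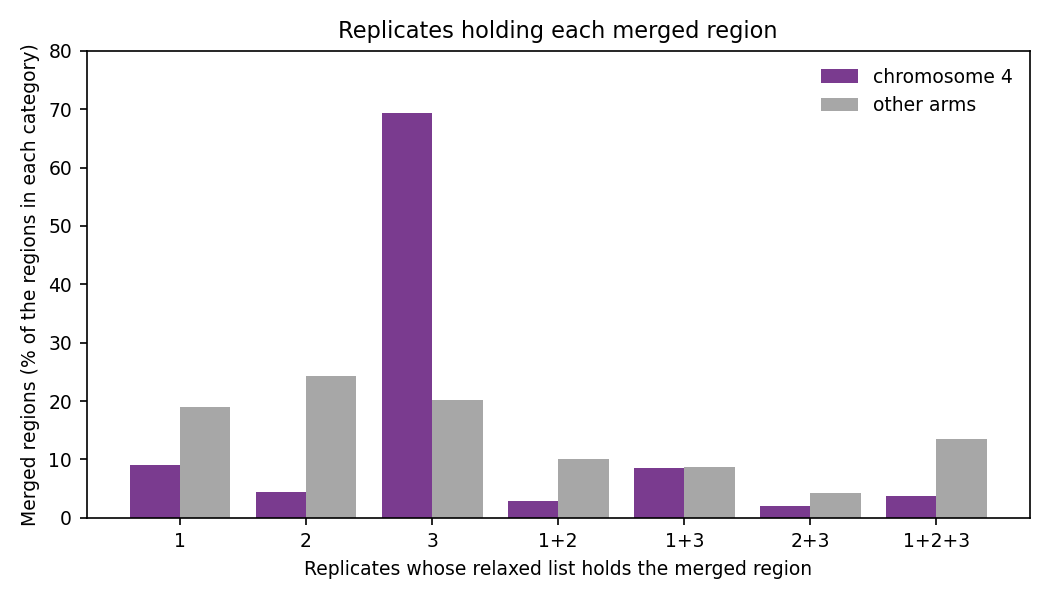
Percentage of merged regions (vertical axis) by the set of replicates that listed them (horizontal axis), for chromosome 4 (purple, 245 regions) and the other arms (grey, 54505 regions). On chromosome 4 the bar for replicate 3 alone stands at 69.4%, against 20.2% on the other arms, and the bar for all 3 replicates at 3.67%, against 13.5%.

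The 9 regions of all 3 replicates are 3.67% of the total (95% Clopper-Pearson interval 1.69 to 6.86%), where 13.4% of the merged regions of all arms were held by all 3 replicates. The pooled list held 50 of the 245 (20.4%, interval 15.5 to 26.0%), against 38.9% over all arms. The optimal list held 11 (4.49%, interval 2.26 to 7.89%), against 6.47%, so that this share lay near the background. Without replicate 3 there were 75 regions, of which the pooled list held 49.3% (interval 37.6 to 61.1%) and the optimal list 14.7% (interval 7.56 to 24.7%), against 44.2% and 8.04% on the other arms. The order of chromosome 4 and the other arms thus turned for both lists without that replicate, and it stayed as above without replicate 1 or replicate 2. The joint lists come from the same libraries and are not independent of the relaxed lists.

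Within each list, peaks in regions that another replicate also held had the better median rank. In replicate 1 the median was 11848.5 for such peaks (n = 40) and 13781.5 for those it held alone (n = 22). In replicate 2 the medians were 8074 (n = 22) and 19756 (n = 11), and in replicate 3 they were 10420 (n = 40) and 17522 (n = 189). The other arms had the same order in each replicate, with medians of 10993 to 11988.5 for shared and 18320 to 19583 for single peaks, so the order is not particular to chromosome 4. Of the 170 regions of replicate 3 alone, the pooled list held 13 and the optimal list none, whereas of the 9 shared by all replicates the pooled list held 9 and the optimal list 7. The other arms showed the same order. Of their 11012 regions of replicate 3 alone, the pooled list held 1982 and the optimal list 8. Of their 7338 shared by all replicates, the pooled list held 7170 and the optimal list 3301. Where replicates listed the same region, their ranks ran together, with a Spearman rho of 0.779 over the 16 regions of replicates 1 and 2, 0.831 over the 30 of replicates 1 and 3 and 0.727 over the 14 of replicates 2 and 3. The coefficients describe only the regions that both lists hold.

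The strongest region in the pooled list was R228 (chr4:1113263-1113426), which lies in the 3' untranslated sequence of Cals and runs across the end of sv, with its summit just past that end. sv encodes the Pax transcription factor shaven and Cals the membrane protein calsyntenin. Its signal was 189.3 in replicate 1 (rank 191) and 131.7 in replicate 3 (rank 306), and replicate 2 did not list it. The pooled list ranked it 214, with a signal of 499.0. It is thus a region near the top of both lists that hold it and missing from the third.

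R72 (chr4:424726-424881) had the best mean rank of the regions in all 3 lists. It is intergenic, 1252 bp from the start of lncRNA:CR43437. Its signal was 107.4 in replicate 1, 114.9 in replicate 2 and 138.7 in replicate 3, with ranks of 573, 482 and 277. The 3 values lie close together, and at 156 bp it was also the shortest of all regions. The longest, at 1253 bp, was R198 (chr4:980058-981310), an intergenic region of replicates 1 and 3 that the pooled list held at rank 9720.

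R96 (chr4:497696-498065) is intergenic, 3916 bp from the start of zfh2, which encodes a zinc finger homeodomain factor of wing and leg development. Its signal was 68.2 in replicate 1, 43.1 in replicate 2 and 198.0 in replicate 3. Replicate 3 ranked it 113, the best rank of any chromosome 4 region, while the other replicates ranked it 1329 and 2265. R199 (chr4:982794-983213) is likewise intergenic, 4487 bp from the start of fuss, a gene of the Ski and Sno family. Its signals of 77.4, 65.2 and 59.1 and ranks of 1067, 1251 and 1583 were close to each other.

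Start sites made up the other 4 strong regions of all replicates. R205 (chr4:1026978-1027434) lies 126 bp from the start of PlexA, the receptor for a semaphorin in axon guidance. Its signal was 116.3 in replicate 1, 119.4 in replicate 2 and 44.2 in replicate 3, so that replicate 3, highest at R96, was lowest here. R170 (chr4:807450-807865) lies 322 bp from a start of Sox102F, a Sox transcription factor, with signals of 65.1, 79.0 and 52.5. R130 (chr4:659893-660373) lies 183 bp from a start of gw, which is needed for silencing by miRNAs, with signals of 67.1, 44.8 and 76.7. R207 (chr4:1030767-1031478) lies at the start of CG11076 and near that of ATPsynbeta, a subunit of the mitochondrial ATP synthase, with signals of 50.2, 63.5 and 38.2.

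A weaker region of all 3 lists, outside the optimal list, was R168 (chr4:801311-801780), in a coding exon of Sox102F 2591 bp from a start site. It had signals of 14.04, 21.2 and 15.1, at ranks of 19082, 7601 and 18338. The pooled list held it at rank 8764.

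The remaining 3 regions of the optimal list were held by replicates 1 and 3 and not by replicate 2. R15 (chr4:67035-67491) lies 36 bp from the start of RpS3A, a ribosomal protein gene, with signals of 56.0 and 60.4. R94 (chr4:489290-489719) lies 544 bp upstream of a start of Asator, a protein kinase of the tau tubulin kinase family, with signals of 48.6 and 44.3. R91 (chr4:486522-486978) lies in an Asator intron, 738 bp from a start, with signals of 29.1 and 53.5.

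**Figure D4:**
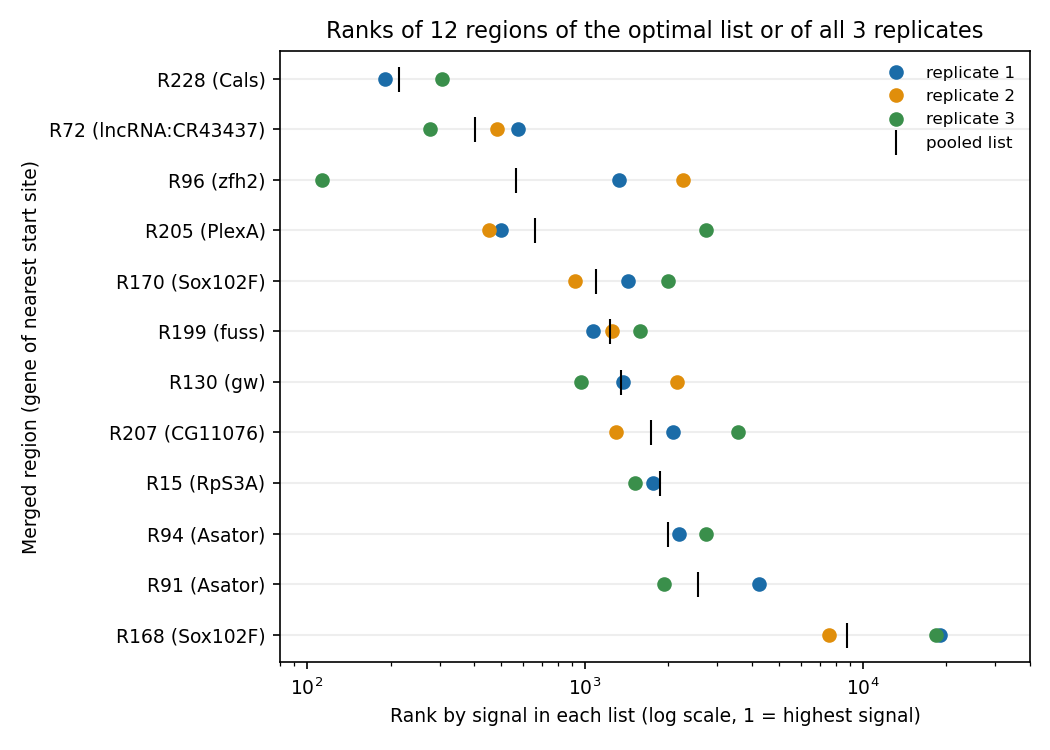
Rank by signal (horizontal axis, logarithmic, 1 is the highest) of 12 regions that are in the optimal list or in all 3 relaxed lists (vertical axis, with the gene of the nearest start site), 1 point per replicate and a tick for the pooled list. The points of R72 lie between 277 and 573, those of R96 spread from 113 to 2265, and 4 regions have no point for replicate 2.

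A peak at chr4:663055-663438, 123 bp from the start of CG46466, was in both the pooled and the optimal list at rank 3179 with a signal of 102.5, yet no relaxed list overlapped it. The nearest merged region was 727 bp away. It was the only chromosome 4 peak of either list outside the 245 regions.

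Of the 80 protein-coding genes of the chromosome, 67 (83.8%, interval 73.8 to 91.1%) had a region within their span or 500 bp of it, where 88.3% of protein-coding genes of all arms did. Genes of chromosome 4 are long, with a median span of 10090 bp against 2156 bp elsewhere, so each offered more sequence to a peak. Replicate 3 placed a region at 65 of these genes, replicate 1 at 26 and replicate 2 at 11, and 41 genes had regions of replicate 3 only. All 11 genes with a region of replicate 2 also had regions of the other replicates. Without replicate 3 the share of genes with a region was 32.5%, and counting only regions held by all 3 replicates it was 6.25%, or 5 genes. The shares of the other arms under these limits are not given, so these values cannot be set against the 88.3%.

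Start sites showed the same split between replicates. A summit lay within 500 bp of the gene's own start at 16 of the 80 genes in replicate 1 (20%), at 7 in replicate 2 (8.75%) and at 45 in replicate 3 (56.3%). On the other arms the shares were 45.3%, 33.4% and 54.6%. In replicates 1 and 2 the chromosome 4 value was below that of the other arms and in replicate 3 it was slightly above, and the difference was not tested. The pooled list had a summit at 17 of the 80 starts (21.3%) and the optimal list at 8 (10%). On the other arms these shares were higher, at 42.7% and 15.8%.

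Genes were grouped by function to describe which of them carried regions. Of 17 genes listed as transcription and chromatin regulators, 16 had a region, 9 had one held by 2 or more replicates and 3 had one in the optimal list. The list counts gw, described above by its part in silencing by miRNAs, which holds R130 of the optimal list. It leaves out fuss, MED26 and NfI, which had 4, 5 and 0 regions, so these counts depend on how genes were assigned. Those with the best-ranked regions were sv, Sox102F and gw, and onecut, which encodes a homeodomain factor, had none. Sox102F had 6 regions, 4 of them in 2 or more replicates and 2 in all 3, while zfh2 and Asator also had 4 in 2 or more replicates but none in all 3.

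Several transcription factor genes of development are given here by value. zfh2, with a span of 39065 bp, had 13, of which R99 at its start (39 bp away) was ranked 10935 in replicate 1 and 1557 in replicate 3. ey, a Pax factor of eye formation, had 12, of which R138, 751 bp from its start, was ranked 1978 in replicate 1 and 4267 in replicate 3 but was not in the pooled list. Its relative toy had 3, all of replicate 3, with R200 at its start ranked 5119. pan had 7, all of replicate 3, of which R18 (chr4:70086-70501), 111 bp from a start, ranked 2102 and was in the pooled list at 5181. ci had 3, with R7 at its start ranked 2777 in replicate 3 only. dati, a zinc finger factor of the nervous system, had 6, of which R61 at its start was ranked 27081 in replicate 1 and 2825 in replicate 2. pho, which recruits Polycomb complexes, had R237, ranked 2360 in replicate 1 and 7998 in replicate 3. Of these start-site regions, R99, R61 and R237 were in 2 lists and R200, R18 and R7 in 1.

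Of 14 genes for signalling and guidance, 13 had a region, 2 had one in 2 or more replicates and 2 had one in the optimal list. PlexA and Asator gave both of the latter. Asator had 11 regions, all of them listed by replicate 3 and 4 of them also by replicate 1. PlexB, the other plexin, had 4, with R4 at its start ranked 3477 in replicate 1 only and in the pooled list at 4116. The Eph receptor gene Eph had 3 regions and its ligand gene Ephrin 2, all of replicate 3, and RhoGAP102A had none.

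Of 11 genes for synapse, nerve and muscle, 9 had a region, 2 had one in 2 or more replicates and none had one in the optimal list. bt, which encodes the giant muscle protein projectin, had 13 regions over 52075 bp, and the best of them, R157, was a coding one ranked 3664 in replicate 2 and 18398 in replicate 1. unc-13, which primes synaptic vesicles for release, had 6 regions over 44508 bp, all of replicate 3. Zyx, for an actin-associated adhesion protein, had 4, and the transporter gene Gat and the cell-surface gene dpr7 had none.

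Of 10 genes for general cell functions, 8 had a region and 3 had one in the optimal list, namely Cals, ATPsynbeta and RpS3A through R228, R207 and R15. Zip102B and eIF4G1, for a zinc transporter and a translation initiation factor, had none. Of the 28 genes on none of these lists, 21 had a region, 3 had one in 2 or more replicates and 1 in the optimal list, CG11076 through R207. CG46466 and MED26, a Mediator subunit, came next in rank, with best ranks of 3142 and 4064. apolpp, for the lipoprotein of the fly's circulating fluid, had 8 regions with a best rank of 8101. With few genes in a list and spans that differ, the counts describe the lists and do not set them apart from each other.

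**Figure D5:**
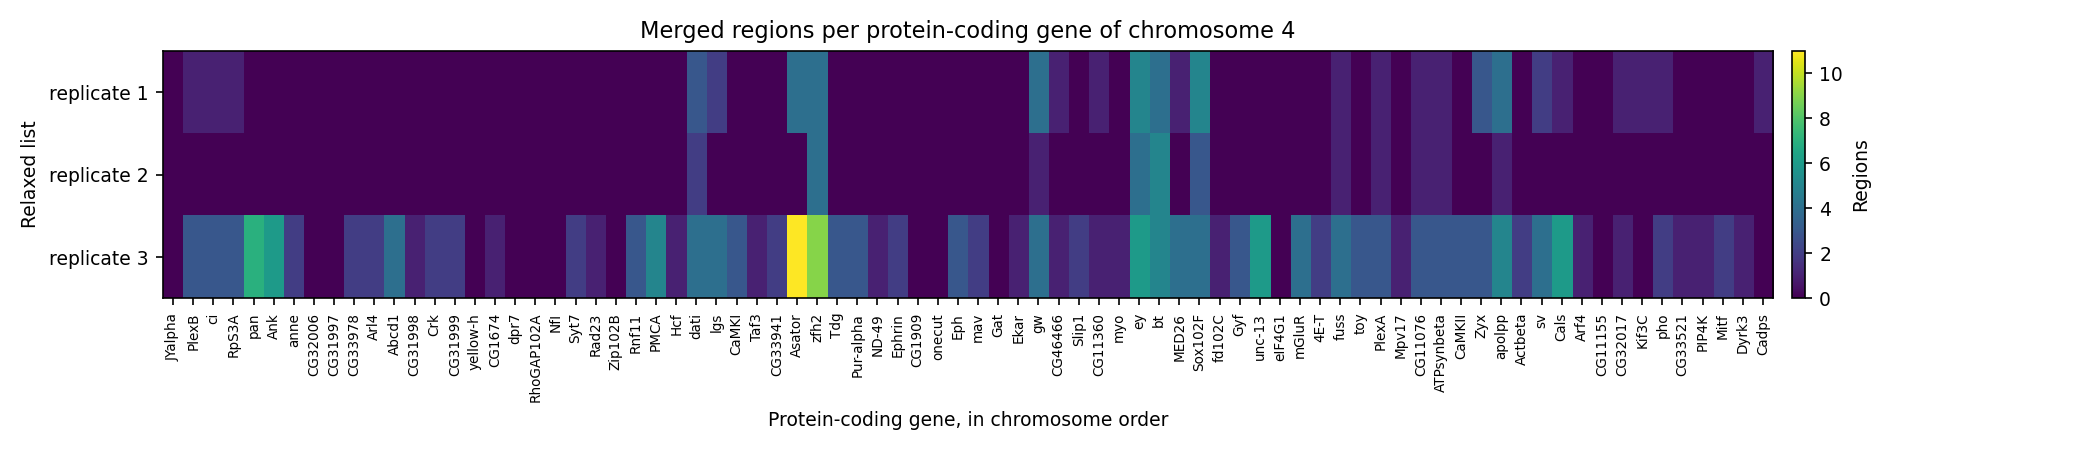
Number of merged regions (colour) at each protein-coding gene of chromosome 4 with 500 bp added (horizontal axis, in chromosome order), 1 row per replicate. Replicate 3 has regions at 65 genes, with 11 at Asator, while the rows of replicates 1 and 2 are empty at most genes.

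Regions were not spread evenly along the chromosome. In steps of 100 kb, the step from 400001 to 500000 held 35 regions, the most, of which 11 were in 2 or more replicates and 4 in the optimal list, and it carries lgs, Asator and the sequence before zfh2. The step from 700001 to 800000, with ey and bt, came next with 27. The step from 200001 to 300000 held 6 although it has 9 protein-coding genes. The last step held 1, but it is only 48131 bp long and has 0 protein-coding genes. Replicates 1 and 2 had no region between 100001 and 300000, where replicate 3 had 23. The first peak of replicate 2 started only at 378003, against 43664 in replicate 1 and 41377 in replicate 3. The masked repeat share of the steps between 100001 and 300000 was 25.9% and 30.01%, where the 14 steps ran from 18.6% to 42.4%.

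By annotation, 68 of the 245 regions had their summit within 500 bp of a start site (27.8%), 68 in introns, 66 in coding exons (26.9%), 34 between genes and 9 in untranslated or other exon sequence. Of the 42 regions of 2 or more replicates, 16 were near a start (38.1%), and of the 11 of replicate 2 alone none was and 6 were coding. Positions taken along the whole chromosome fell near a start in 10.9% of cases and in coding exons in 19.1%, where the other arms had 13.6% and 13.9%.

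Per peak, the share near a start was 33.9% on chromosome 4 in replicate 1, 24.2% in replicate 2 and 30.1% in replicate 3, against 23.3%, 17.1% and 34.2% on the other arms. The mean difference of 4.51 ± 7.65 percentage points (SD, n = 3; exact sign-flip permutation p = 0.5) was smaller than its spread, with chromosome 4 higher in 2 of 3 replicates. Counting starts within 1000 bp turned it to -1.95, while it was 8.46 with the 15000 highest peaks of each list and 11.2 with the 3646 highest, both at p = 0.25 by the same exact test. It was 1.504 without replicate 1 and 8.82 without replicate 3. The coding share was 25.8%, 33.3% and 23.1% on chromosome 4 and 19.1%, 17.7% and 15.7% on the other arms, higher on chromosome 4 in each replicate. The sequence itself is also more often coding there, at 19.1% of positions against 13.9%, and the shares were not corrected for that.

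Regions were poorer in repeats than the chromosome around them. Masked sequence made up 18.9% of the bases in regions against 28.1% of chromosome 4, and annotated transposons 11.6% against 25.1%. The other arms showed the same order, with 13.04% against 20.1% masked and 0.492% against 5.75% in transposons. The masked share was similar in the peaks of the 3 replicates, at 18.7%, 16.4% and 18.5%, although their numbers differed. Of the 9 regions of all replicates, 2.67% of bases were transposon sequence. Bases in regions were 38.4% G or C against 35.2% over the chromosome, and all 245 regions together cover 108676 bp, 8.16% of it, where regions of the other arms cover 18.3%. How reads that map to several repeat copies were treated is not stated.

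The ETS core was found in the 201-base window of 15 regions (6.12%, interval 3.47 to 9.90%), where 4.27% of all windows of that length on chromosome 4 and 6.13% on the other arms held it. Of the 15, 9 were regions of replicate 3 alone and 3 were near a start. Among the 11 regions of the optimal list 1 held it, R15 at RpS3A, and of the 9 regions of all replicates none did, which allows a share of up to 33.3% when 3 counts are taken as the limit of a count of 0. The DRE was found in 10 regions (4.08%, interval 1.97 to 7.38%), against 1.98% of windows on chromosome 4 and 0.550% on the other arms. The E-box was in 10 regions (4.08%, against 4.44% and 8.43% of windows) and the GAGA element in 4 (1.63%, against 1.77% and 2.45%). A match describes letters and not a bound site, and the windows of regions are centred on summits that share libraries.

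The authors' lists on the older dm3 build gave the same picture, with 53, 29 and 220 chromosome 4 peaks in the 3 replicates, 48 in the pooled list and 12 in the optimal list. The dm3 relaxed list of replicate 1 held 27276 peaks rather than 30000.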

How the data were processed

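Chromatin immunoprecipitation against GFP was measured in 3 biological replicates of whole Pnt-eGFP embryos. The deposited peak lists hold the authors' signal value per peak, whose scale is not stated, a summit offset, and a −log10 of the q-value; the aligner and peak caller were not given in the sources used here. Per the deposited file notes, each list was called against a control. Per the labels, the builds are dm6 and dm3. Replicates 1, 2 and 3 were grouped by the labels. With Python 3.11.15, numpy 2.4.6, pandas 2.3.3 and scipy 1.17.1, rows on chromosome 4 were merged at 1 bp of overlap, ranked by signal within each list, and compared with the pooled and optimal lists and with genes and transposons of the BDGP6.54 annotation. Repeats are the soft-masked bases of the RefSeq dm6 genome. Start sites count as near within 500 bp, and motif windows reach 100 bp either side of the summit. Density (as log2 ratios), start-site share and median rank were tested by an exact sign-flip permutation over the 3 replicates. The p-values depend only on the signs and sizes of the differences in these samples. Intervals are 95% Clopper-Pearson and cover counting error only. A CTCF-like motif was also tried and is not reported. The pipeline was tested on simulated data. Regions named are those of the optimal list, those of all 3 replicates (up to 10 by mean rank, less the 1 counted but not reported here), the best-ranked and the missing genes of each gene list, the extremes in length and density, and the 5 genes with most regions; ci, pan, ey, toy, dati, pho, Eph, Ephrin, R61, R63, R138 and the ETS core matches were named after their values were seen. Members and lists were chosen with earlier results of these data known. Alternatives tried are other list lengths, overlaps, windows and leaving out each replicate.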

Additional observations from a re-analysis of the deposited data

How the results depend on the processing

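A count was taken as moved past 1.5 times, a share past its counting interval, the masked share past 1 SD between replicates, and a test result where its sign turned. With the 15000 highest peaks of each list there were 125 regions, at 65% of genes. The pooled list held 36% of them and the optimal list 8.8%. With as many peaks as the optimal list holds there were 25, of which 28% were in all 3 replicates. The same shares over all arms are not given at these list lengths, so these values cannot be set against the shares of the full lists. Leaving out each replicate in turn gave 75 to 234 regions, a pooled share of 19.1 to 49.3%, an optimal share of 4.70 to 14.7%, and 32.5 to 83.8% of genes, the extreme each time without replicate 3. The start-site difference was -1.95 points at 1000 bp, 5.92 at 200 bp, 8.46 and 11.2 in the shorter lists and 1.504 to 8.82 with a replicate left out, and the difference in median rank ran from -9.08 to 0.118, its sign turning without replicate 2. Regions of all 3 replicates alone gave 6.25% of genes and 16.3% masked bases. Gene shares of the other arms are not given for these regions or with a replicate left out. With 250 bp either side of the summit the ETS core was in 12.2% of regions and the E-box in 9.80%. A wider window holds more bases, and the shares of background windows of that width are not given. The motif shares of the wider window therefore cannot be set against the background shares of the narrower one. The density ratio stayed under 1 in every alternative run, from 0.158 to 0.485. The cause of these shifts was not tested. No paired analysis was possible because there is 1 group, other than that of chromosome 4 with the other arms within a replicate. Depth is unknown, so peaks missing from a list cannot be called absent from the chromatin.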
